A study of Mus musculus with 3 samples.

Results

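The 10 macrophage identity genes *Csf1r*, *C1qa*, *C1qb*, *C1qc*, *Mrc1*, *Adgre1*, *Cx3cr1*, *Aif1*, *Timd4* and *Ly86* were followed through single-cell transcriptomes of adult mouse cardiac endothelium that had been co-cultured with embryonic stroma. They were chosen by name as genes in common use to recognize tissue macrophages, with earlier results of these data known. They are 10 of the 27994 genes counted. All 10 were found in the count table. The cells came from the hearts of GFP+ mice, which the methods give as female and 12–16 weeks old, and were sorted for GFP, CD31 and VE-Cad and against CD41, CD45, PDGFRA and PDGFRB. They were taken fresh (0 h) or after 24, 48, 72 and 96 h in co-aggregates with Mesp1-derived PDGFRA+ stromal cells (PSCs) of E11.5 *Mesp1*–DsRed+ embryos, which had themselves been sorted against CD31, VE-Cad, CD41 and CD45. The culture medium held 20% serum with IL-3, SCF and Flt3L at 100 ng/ml each. At the end of culture the cells were sorted again for GFP, CD31 and VE-Cad and against PDGFRA, with no gate on CD45. All time points were mixed in each of 3 pools, so that no cell carries its time point. GFP tells donor heart cells from stroma, and the CD31 and VE-Cad gates select endothelium.

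The deposited table places each cell in 1 of 7 clusters, numbered 0 to 6, which hold 728, 799, 5396, 239, 518, 1572 and 310 cells. The numbers were given by the authors from the highest *Cdh5* (VE-cadherin, endothelial) to the highest *Runx1* (haematopoietic). Barcodes end in 1 of 3 library suffixes that are tied to no pool in the sources used here, so the matrix was treated as 1 sample and no test was run. Median depth ranged from 13440.5 unique molecular identifiers (UMIs) per cell in the library with suffix 2 to 38312 in that with suffix 3, and from 7875 in cluster 1 to 36065.5 in cluster 5. The libraries shared 13 barcode sequences, on 26 cells, of which 4 were in cluster 5. A level is the sum of UMIs of a gene per 10,000 UMIs of a group of cells. As the assay tags the 3′ end of each molecule once, levels were not divided by gene length. Brackets give exact 95% intervals, which cover counting error only.

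Macrophages are phagocytes that live in almost every tissue, the heart included, and arise from embryonic progenitors or from blood monocytes. Their survival and growth depend on the receptor tyrosine kinase encoded by *Csf1r*, which binds the cytokines CSF1 and IL-34. *C1qa*, *C1qb* and *C1qc* encode the chains of C1q, the recognition molecule of the classical complement pathway, which in most tissues is made by macrophages. *Mrc1* encodes the mannose receptor (CD206), *Adgre1* the adhesion receptor F4/80, *Cx3cr1* the receptor for fractalkine, and *Timd4* a phosphatidylserine receptor that binds dying cells and marks long-lived resident macrophages. *Aif1* encodes the actin-binding protein IBA1, and *Ly86* encodes MD-1, the partner of the receptor RP105.

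The C1q genes lie side by side on the minus strand of chromosome 4 (GRCm38, GENCODE M21), with *C1qb* at chr4:136880129-136886187, *C1qc* at chr4:136889804-136893065 and *C1qa* at chr4:136895917-136898803. The locus spans 18675 bases.

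Because the members were detected together in the same cells, as described below, the 250 bases before the transcript start were searched for GAGGAA on either strand (TTCCTC on the other), the core letters bound by PU.1, the product of *Spi1*. RefSeq windows (GRCm38.p6) were held for 7 members, and 4 of them contained the letters. The RefSeq starts differ from the ends of the GENCODE spans given here. The windows of *C1qc*, *Mrc1*, *Aif1* and *Ly86* thus reach into the GENCODE span of their gene, and that of *Cx3cr1* lies inside it. Of all 32851 windows, 7639 (23.3%) did. The match is a description of letters and not of binding. Of the 4 windows with the letters, those of *C1qb*, *C1qc* and *Mrc1* are printed 5′ to 3′ on the strand of the gene, with the letters in capitals, to show where they lie. They are chr4:136886201-136886450 for *C1qb*, chr4:136892915-136893164 for *C1qc* and chr2:14229164-14229413 for *Mrc1*.
C1qb: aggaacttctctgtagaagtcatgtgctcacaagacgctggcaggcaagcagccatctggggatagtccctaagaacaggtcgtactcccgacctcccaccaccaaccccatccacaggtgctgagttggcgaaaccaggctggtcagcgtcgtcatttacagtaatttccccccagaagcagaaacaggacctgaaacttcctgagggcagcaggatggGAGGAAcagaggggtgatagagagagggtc
C1qc: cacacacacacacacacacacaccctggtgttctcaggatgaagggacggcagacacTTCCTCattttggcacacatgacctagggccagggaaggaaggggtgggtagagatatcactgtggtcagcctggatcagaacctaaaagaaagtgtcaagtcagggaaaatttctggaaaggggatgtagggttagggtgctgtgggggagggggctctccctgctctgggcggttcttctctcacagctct
Mrc1: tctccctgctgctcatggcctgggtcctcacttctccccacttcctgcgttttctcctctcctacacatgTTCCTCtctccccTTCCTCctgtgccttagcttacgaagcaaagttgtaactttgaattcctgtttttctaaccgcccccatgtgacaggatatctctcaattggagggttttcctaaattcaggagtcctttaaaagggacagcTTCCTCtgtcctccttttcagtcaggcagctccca
*C1qb* had the letters once on its own strand, *C1qc* once and *Mrc1* at 3 places on the opposite strand. *Aif1* had them once, and the windows of *Cx3cr1*, *Timd4* and *Ly86* did not contain them.

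Of the other members, *Csf1r* lies at chr18:61100598-61132149 (plus strand), *Mrc1* at chr2:14229392-14332057 (plus), *Adgre1* at chr17:57358691-57483527 (plus), *Cx3cr1* at chr9:119901616-120069879 (minus), *Aif1* at chr17:35170991-35176068 (minus), *Timd4* at chr11:46810800-46844332 (plus) and *Ly86* at chr13:37345208-37419036 (plus). All 10 are annotated as protein coding. *Csf1r* overlaps *Mir6983* and *Hmgxb3*, *Mrc1* overlaps *Mir511* and the annotated span of *Cx3cr1* overlaps 9 other genes. How reads in these overlaps were assigned is not given in the sources used here.

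Of all UMIs of the 10 genes, 95.9% lay in cluster 5, where their summed level was 22.9 (22.8–23.0) UMIs per 10,000. Cluster 1 followed at 4.35, cluster 6 at 0.348, cluster 3 at 0.171, cluster 0 at 0.137, cluster 2 at 0.112 and cluster 4 at 0.0946. The level of cluster 1 came mostly from few of its cells, as described below. In the libraries with suffixes 1, 2 and 3 the level in cluster 5 was 23.3, 21.3 and 23.5, and in cluster 1 it was 6.13, 5.43 and 0.984. The high level of cluster 5 was thus shared by all 3 libraries, while that of cluster 1 was lower in the library with suffix 3. The place of cluster 6 rested on the library with suffix 1, since its level by library was 0.627, 0.100 and 0.239. Genes at a minimum level of 0.1 in either group were compared between cluster 5 and all other clusters, and 4.34% of 8915 were at least 4-fold higher in cluster 5. This held for 9 of the 9 members that reached the minimum, with a median log2 ratio of 6.23 against -0.07 for all genes compared. *Timd4* did not reach it. Since the clustering used these counts too, the ratios describe cluster 5 and support nothing beyond it.

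*Csf1r*, the CSF1 receptor, reached 1.84 (1.81–1.88) UMIs per 10,000 in cluster 5, and cluster 1 was next at 0.177. In clusters 0, 2, 3, 4 and 6 it was at 0.0111, 0.00954, 0.0154, 0.0186 and 0.0362, and the intervals of neighbours in this order overlapped. In cluster 5 the level by library was 1.83, 1.74 and 1.92. Cells with more than 0.5 counts per 10,000 UMIs of the cell (CPTT, the threshold of the study's dot plots) made up 56.4% of cluster 5. With 5000 UMIs drawn from every cell, which left out 90 shallower cells, 43.1% (40.6–45.6%) of cluster 5 had a *Csf1r* UMI. In cluster 3 (median 23684 UMIs) this share was 0.418%, and in cluster 4 (median 19475.5) it was 1.17%. Both clusters serve here as a reference low in blood genes, as neutrophil genes summed to 0.207 and 0.0963 UMIs per 10,000 there against 16.4 in cluster 5. The part of free RNA or of joined cells in their shares was not tested.

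The ligands of this receptor followed another pattern. *Csf1* was highest in cluster 1, at 1.04, followed by cluster 0 at 0.197 and cluster 4 at 0.104. Its levels in clusters 2 and 5 were 0.0400 and 0.0375. *Il34* was near 0, with 1 UMI in cluster 5 and at most 5 in any cluster. *Cx3cl1*, which encodes fractalkine, the ligand of CX3CR1, was also highest in cluster 1, at 0.306, then cluster 0 at 0.173, whereas cluster 5 had 0.0182. The clusters with more ligand transcript were thus not the one with most receptor transcript, apart from the second place of cluster 1 for *Csf1r*. Within cluster 1, 39 cells with at least 3 members, described below, held 127 of the 149 *Csf1r* UMIs. The same cells held 24 of the 877 *Csf1* UMIs, so that ligand and receptor transcripts lay mostly in different cells.

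The 3 C1q genes gave 60.8% of the member UMIs in cluster 5. *C1qb* was at 6.98 (6.92–7.05) there, *C1qc* at 3.80 (3.75–3.85) and *C1qa* at 3.14 (3.10–3.19). *C1qb* was at 7.13, 6.23 and 7.32 in the 3 libraries. In cluster 1 the order differed, with *C1qa* at 1.46, *C1qb* at 1.19 and *C1qc* at 0.939. *C1qa* was therefore only 2.15-fold higher in cluster 5 than in cluster 1, against 5.88-fold for *C1qb* and 4.05-fold for *C1qc*. Of the 1230 *C1qa* UMIs in cluster 1, 1147 lay in 39 cells that are described below. In the other clusters *C1qb* was at 0.0297 to 0.0975. At 5000 UMIs, *C1qb* was found in 47.1% (44.6–49.6%) of cluster 5, in 5.44% of cluster 3 and in 2.54% of cluster 4. The corresponding shares were 41.9%, 1.67% and 1.17% for *C1qc* and 35.8%, 2.51% and 0.195% for *C1qa*.

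Among the surface receptors, *Cx3cr1* had the highest share of its UMIs in cluster 5, at 98.5%. Its level of 2.54 (2.50–2.58) in cluster 5 was followed by 0.0334 in cluster 6 and 0.0226 for cluster 1, and the intervals of the latter pair overlapped. Cluster 5 was thus 113-fold above cluster 1. *Adgre1* had the lowest, with 91.6%, and was at 0.431 (0.415–0.448) against 0.234 in cluster 1, a 1.84-fold difference. Of its 197 UMIs in cluster 1, 177 lay in the same 39 cells as those of *C1qa*. *Mrc1* was at 1.40 in cluster 5, followed by cluster 1 at 0.0594 and cluster 2 at 0.0257. *Timd4* was the least counted member, at 0.0665 (0.0602–0.0733) in cluster 5 from 406 UMIs. It had 9 UMIs in all other clusters and 0 in clusters 3, 4 and 6, where 3 UMIs would have been a level of 0.00420, 0.00253 and 0.00279. At 5000 UMIs the shares of cluster 5 cells were 45.2% for *Cx3cr1*, 25.7% for *Mrc1*, 18.3% for *Adgre1* and 2.81% for *Timd4*, against at most 2.09% in clusters 3 and 4.

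*Aif1* was at 1.03 in cluster 5 and 0.176 in cluster 1, and *Ly86* at 1.66 and 0.0868. At 5000 UMIs *Aif1* was found in 29.0% of cluster 5 and *Ly86* in 40.4%, against at most 0.837% in clusters 3 and 4. In cluster 5 the level of *Aif1* by library was 1.09, 0.872 and 1.07, and that of *Ly86* was 1.80, 1.45 and 1.63. Both were lowest in the library with suffix 2, whereas *Mrc1* was highest in it, at 1.61 against 1.25 and 1.45.

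**Figure D1:**
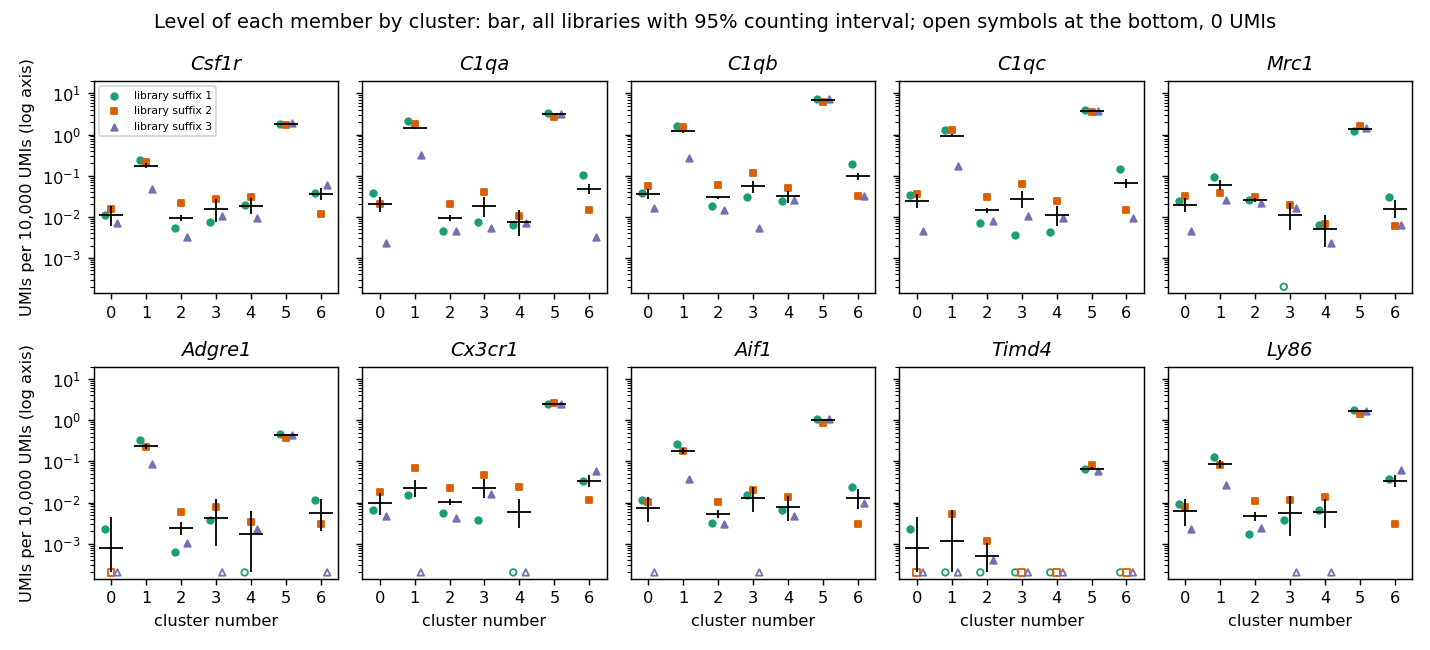
Level of each of the 10 genes in clusters 0 to 6, in UMIs per 10,000 UMIs on a log axis; black bars are all libraries together with their 95% counting interval, and circles, squares and triangles are the libraries with suffixes 1, 2 and 3. Every gene is highest in cluster 5, and cluster 1 stands out for the C1q genes and *Adgre1* but not for *Cx3cr1*, at 2.54 against 0.0226. Most UMIs of the C1q genes and *Adgre1* in cluster 1 lie in 39 of its cells.

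The members were not spread evenly over cluster 5 but fell in the same cells. At 5000 UMIs, 609 of its 1568 cells had none of the 10 genes, 119 had 1, 71 had 2, 80 had 3, and 294 had 7 or 8. A dip at 2 members therefore separated cells without the genes from cells with most of them. Cells with at least 3 members are called member-rich here, and they were 769 of 1568 (49.0%, 46.5–51.5%). The share was 48.5%, 49.1% and 49.8% in the libraries with suffixes 1, 2 and 3. Member-rich and other cells of cluster 5 had similar depth, with medians of 35073 and 37607 UMIs. The shared barcodes accounted for 2 member-rich cells.

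Outside cluster 5 there were 80 member-rich cells, so that 90.6% of the 849 were in cluster 5. Cluster 1 had 39 of 745 (5.23%), of which 22, 13 and 4 were in the libraries with suffixes 1, 2 and 3. These 39 cells held 3337 of the 3656 member UMIs of cluster 1. In its other 760 cells *C1qa* was at 0.108 and *Adgre1* at 0.0260 UMIs per 10,000. Cluster 2 had 34 of 5377 (0.632%), and all 34 were in the library with suffix 2. These 34 cells had a median of 7754 UMIs, against 22618 in the other cells of cluster 2, and their endothelial markers summed to 37.5 UMIs per 10,000 against 42.8. *C1qb* gave 32.8%, *Cx3cr1* 13.8% and *Mrc1* 6.72% of their member UMIs, and 31.1%, 10.7% and 6.28% in the member-rich cells of cluster 5. *C1qa* differed more, at 6.34% (3.74–9.96%) against 14.0% (13.8–14.2%). Across whole clusters the summed member level of the library with suffix 2 was also above that of the others in clusters 2 (0.212 against 0.0710 and 0.0640), 3 (0.352 against 0.0740 and 0.0640) and 4 (0.179 against 0.0738 and 0.0601). In cluster 0 it was at 0.198 against 0.178 and 0.0417, whereas in clusters 1 and 6 it was below the library with suffix 1. The part of free RNA or of joined cells in these values was not tested.

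**Figure D2:**
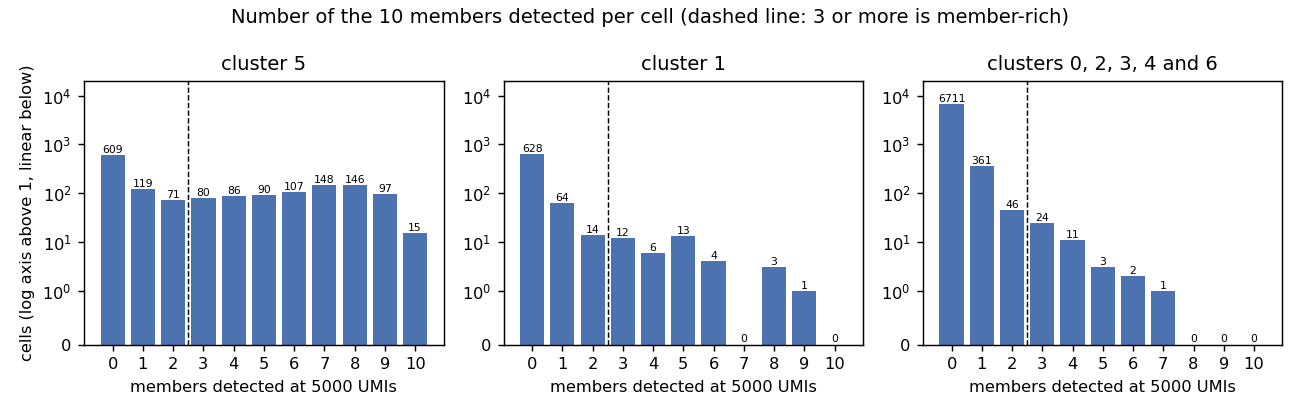
Number of cells (log axis above 1, linear below) by how many of the 10 genes they had at 5000 UMIs, in cluster 5, cluster 1 and the remaining clusters; the dashed line marks 3 members. In cluster 5 the counts dip at 2 members (71 cells) and rise again to 148 cells at 7, and the remaining clusters have 6711 cells with none.

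**Figure D3:**
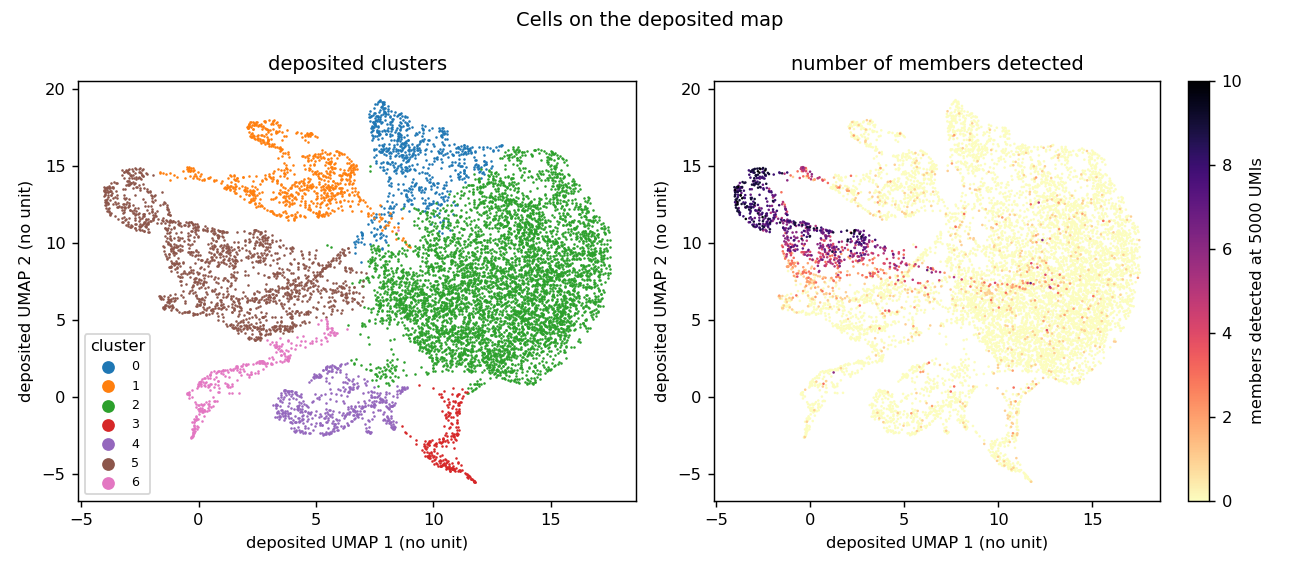
Each cell on the deposited UMAP coordinates, which have no unit, coloured by cluster (left) and by the number of members found at 5000 UMIs (right). Cells with many members fill a part of cluster 5, including a lobe at the far left with 276 member-rich cells, and few lie elsewhere.

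Every pair of members was found together in cluster 5 more often than independent detection gives. The ratio of observed to independent cells exceeded 1 for 45 of 45 pairs, from 1.75 for *Csf1r* with *Ly86* to 3.45 for *Mrc1* with *Timd4*, with a median of 1.94. All 3 C1q genes were found in 512 of 1568 cells (32.7%), 2 of them in 166, 1 in 88 and none in 802. Of the cells with *C1qa*, 97.5% had *C1qb*, and of those with *C1qc*, 96.8% did. The less frequent receptors lay within the C1q cells. Of the cells with *Mrc1*, 98.0% had *C1qb*, as did 91.3% of those with *Adgre1* and all 44 with *Timd4*.

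Within the member-rich cells the ratios were near 1, where the choice of cells by their number of members itself lowers them. They ranged from 0.996 to 1.70 with a median of 1.06, and 40 of 45 pairs were above 1. Haematopoietic genes of other lineages were found with members less often than independence gives. *C1qb* and *Mpo*, the myeloperoxidase of granulocyte progenitors, were found together in 42 cells, a ratio of 0.242. The ratio was 0.259 for *Csf1r* with *Kit*, the SCF receptor of haematopoietic progenitors, and 0.306 for *C1qb* with *Itga2b* (CD41). It was nearer 1 for *C1qb* with the neutrophil gene *S100a8* (0.531) and with *Prtn3*, another granule gene (0.777). The ratio for *S100a8* rests on few cells, as 9 of the 36 cells with *S100a8* had *C1qb*. *Prtn3* was found with *C1qb* in 237 cells, 32.1% of those with *C1qb*. For *C1qb* with *Cdh5* it was 0.867, in 149 cells.

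**Figure D4:**
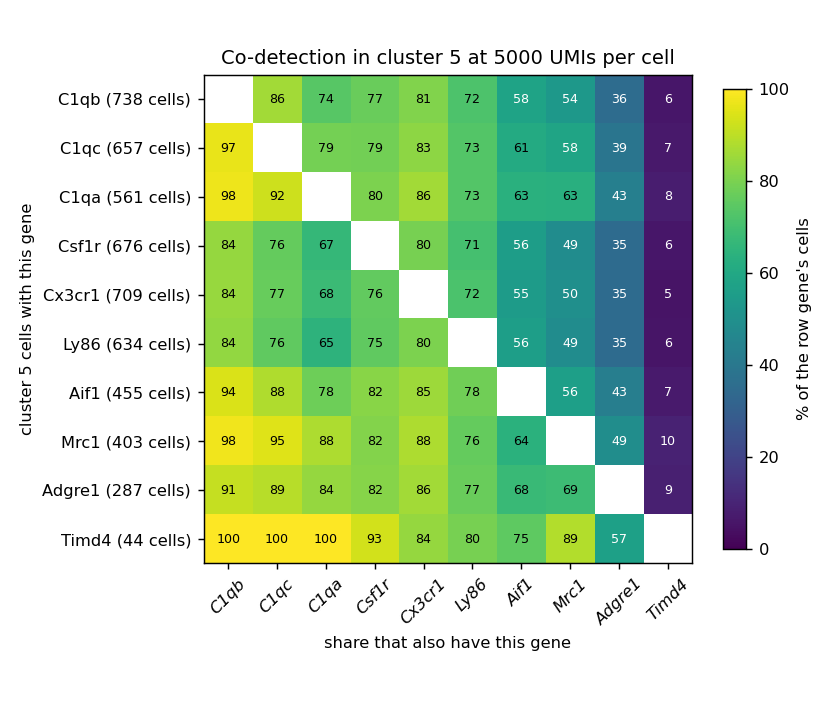
Co-detection at 5000 UMIs in cluster 5, where each square gives the percentage of cells with the row gene that also had the column gene. The *C1qb* column is above 80% in every row, from cells with *Ly86* (83.9%) to cells with *Timd4* (100.0%), whereas few cells of any row had *Timd4*.

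*Csf1r*, *Cx3cr1* and *Ly86* were found without C1q more often than the other members. Of the 119 cells with a single member, 86 had one of these 3 genes (30, 28 and 28 cells), against 9 with *C1qb* and 13 with *Adgre1*. In the 71 cells with 2 members, *Csf1r* was found in 47.9%, *Cx3cr1* in 49.3%, *Ly86* in 43.7% and *C1qb* in 23.9%. *C1qb* reached 68.7% in cells with 3 or 4 members and 97.5% with 5 or 6, whereas *Mrc1* went from 0% with 2 members to 11.4%, 36.5%, 67.7% and 100.0% in cells with 3 or 4, 5 or 6, 7 or 8 and 9 or 10. *Timd4* was not found in cells with 1 to 4 members and was in 25.0% of those with 9 or 10. As the groups are made from the count of members, a rise of each share with that count is built in. Cells with 9 or 10 members must have nearly all of them, so only differences between members describe the cells. A member that is counted less is also found in fewer cells at a given depth. *C1qb*, the most counted member of the cluster, was nevertheless rarer than *Csf1r*, *Cx3cr1* and *Ly86* in cells with 1 or 2 members. In all, 94 cells had *Csf1r* without a C1q gene, 184 had a C1q gene without *Csf1r* and 582 had both.

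The cells of cluster 5 were therefore set out in 3 groups, chosen after these values were seen, namely 626 cells with none of C1q, *Csf1r*, *Cx3cr1* and *Ly86*, 176 with *Csf1r*, *Cx3cr1* or *Ly86* and no C1q gene, and 766 with a C1q gene. Their median depths were 37700, 38435 and 33940 UMIs. *Irf8*, a transcription factor of monocytes and macrophages, was at 0.239, 2.13 and 1.87 UMIs per 10,000 in the 3 groups, and *Spi1* at 1.87, 3.97 and 4.61. Ptprc (CD45) was at 0.447, 1.35 and 1.59. For these genes the cells without C1q lay near those with it. *Maf*, a transcription factor of resident macrophages, was at 0.0362, 0.729 and 3.54.

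Genes of granulocyte and progenitor cells divided the groups differently. *Prtn3* (proteinase 3) was at 6.61, 10.4 and 1.74 and *Mpo* at 5.77, 5.09 and 0.234. For *Mpo* the cells with *Csf1r*, *Cx3cr1* or *Ly86* but no C1q thus lay near those without any of the genes, with 2.47–6.68 against 4.71–6.15 over libraries. For *Prtn3* they lay above them, and for the next genes below them. *S100a8*, a calprotectin chain of neutrophils, was at 8.20, 0.0190 and 0.0762. *Kit* was at 0.745, 0.153 and 0.0508 and *Elane* (neutrophil elastase) at 0.818, 0.164 and 0.0111, likewise lower without C1q than in the cells without any of the genes. *Ccr2*, the receptor that brings monocytes into tissue, was at 0.427 in the group without C1q and 0.0762 and 0.105 in the others. In each library *Ccr2* was highest in this group (0.316–0.463, against 0.0413–0.118 and 0.0877–0.122). *Ly6c2*, another monocyte gene, did not share this pattern, at 0.107, 0.0420 and 0.00215 in the 3 groups. *Cd34* was at 2.50, 2.61 and 1.11, so that for it the 176 cells lay near the 626 cells with none of the genes.

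Member-rich and other cells of cluster 5 were then compared over 8192 genes at a level of at least 0.1 in either group. Of these, 8.03% were at least 2-fold higher in member-rich cells and 4.97% at least 2-fold lower, with a median log2 ratio of -0.10 over all genes compared. All 10 members were higher, as the split requires. *Mrc1* was at 2.98 against 0.00956 UMIs per 10,000 and *C1qb* at 14.8 against 0.102, whereas *Csf1r* was at 3.53 against 0.350. *Csf1r*, *Cx3cr1* and *Ly86* gave 29.4%, 25.4% and 23.7% of the few member UMIs left in the other cells, and 7.44%, 10.7% and 6.76% in the member-rich cells.

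Other macrophage genes went with the members. Of 22 further receptors and enzymes 14 reached the minimum level, and all 14 were at least 2-fold higher, with a median log2 ratio of 2.87. They included *Apoe* (apolipoprotein E) at 21.9 against 4.19, *Fcer1g* and *Tyrobp*, adaptors of activating receptors, at 9.87 against 2.67 and 8.95 against 2.78, and *Lyz2* (lysozyme) at 3.58 against 1.19. Markers of some resident macrophages were scarce. In the member-rich cells *Lyve1* was at 0.441, *Folr2* at 0.0702, *Cd5l* at 0.0203 and *Cd163* at 0.00384, and *Vsig4* had 1 UMI in 28625599. *Lyve1* was nevertheless above the 0.0157 of the other cells of cluster 5. *Folr2*, *Cd5l* and *Cd163* had 201, 58 and 11 UMIs in the member-rich cells and 0 in the others. Of 12 transcription factors 9 were compared and 6 were higher. Among them were *Spi1* (4.66 against 2.25), *Maf* (3.52 against 0.142), *Zeb2* (2.61 against 1.13), *Irf8* (1.89 against 0.612) and *Tfec* (0.351 against 0.136). *Cebpb*, at 4.02 against 2.09, *Id3*, at 1.26 against 0.817, and *Cebpa*, at 0.219 against 0.182, were less than 2-fold higher.

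The complement genes around C1q were not counted in step with it. C1r and C1s are the proteases that C1q activates, and their genes *C1ra* and *C1s1* had 8 and 2 UMIs in all of cluster 5. *C4b* had 7, and *C3*, the central complement component, was at 0.0205. Of 10 partners of C1q 4 were compared and only *Lrp1*, an endocytic receptor that can bind C1q, was higher (0.673 against 0.0552). Receptors and regulators of later steps did go with the members, with 4 of 6 higher. *C3ar1*, the C3a receptor, was at 1.33 against 0.0308, *C5ar1* at 0.806 against 0.0207 and properdin (*Cfp*) at 0.703 against 0.103.

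Markers of other cells that the gates could hold were set beside the members. Neutrophil and granulocyte progenitor genes were lower in all 7 of 7 compared, and their 12 genes summed to 2.47 in member-rich cells (2.21–2.91 over libraries, with 2 genes at 0) and 28.8 in the others (15.4–38.0). Erythroid genes were lower in 7 of 7, at 2.60 (0.243–5.97) against 28.4 (2.12–51.3), with none at 0. Megakaryocyte genes were lower in 3 of 4, and *Pf4* was higher, at 2.23 against 0.211. Mast cell and lymphocyte genes were lower in 2 of 2 and 1 of 1. Of the monocyte list, *F13a1* (factor XIII), at 1.48 against 0.142, was higher, *Chil3* and *Fn1* were lower, *Plac8* was at 2.68 against 4.54 and *Ccr2* at 0.129 against 0.135. Genes of MHC class II were low in both, with *Cd74* at 0.212 against 0.263, and *Siglech* was higher (0.113 against 0.0120).

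Endothelial and cell-cycle genes differed less. None of 10 endothelial genes passed 2-fold, and their sum was 4.84 (3.84–6.77 over libraries, none at 0) in member-rich cells, 6.53 (5.67–8.85) in other cells of cluster 5 and 42.8 in cluster 2. *Cdh5* was at 0.483 and *Pecam1* (CD31) at 0.557 in member-rich cells, whose surface proteins had been required by the gates. The part of free RNA in these endothelial levels was not tested. None of 6 proliferation genes passed 2-fold. *Mki67* was at 3.42 against 2.64 and *Top2a* at 3.73 against 3.90. Of 6 genes known as microglial 5 were compared and all 5 were higher, among them *Fcrls* at 2.33 against 0.0234. *P2ry12* was at 0.396 against 0.0216, and *Sall1*, a transcription factor of microglia, was at 0.00314. No stromal gene reached the minimum level.

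The largest ratios outside the lists were those of *Dab2*, an endocytic adaptor (5.39 against 0.0993), *Lgmn*, the lysosomal protease legumain (5.94 against 0.114), and *Ms4a6b* (1.98 against 0.0493), after *Fcrls* and with *C3ar1*. With a minimum level of 1 in the higher group, which applies to both directions, the largest ratios in the other direction were those of *S100a9* (0.0231 against 7.02), *S100a8* (0.0741 against 6.50), *Gm15915* (0.0192 against 1.16), *BC100530* (0.0437 against 1.82) and *Car2* (0.0678 against 1.91). Over the 1568 cells the genes most like the members were also sought by the Pearson correlation of log2(UMIs + 1) with the number of members, among 7833 genes found in at least 5% of the cells. They were *Lgmn* and *Ftl1* (0.79), *Ctsb* and *Tmsb4x* (0.78), *Ckb* (0.75), *Dab2* (0.74), *Maf* (0.72), *Fcer1g* (0.70), *Fth1* (0.69) and *Selenop* (0.66). *Ctsb* is cathepsin B, *Ftl1* and *Fth1* are the ferritin chains, and *Tmsb4x* is thymosin β4. The cells share libraries and were brought to 1 depth, and the values describe these cells only.

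*Maf* and the granule genes followed the number of members in opposite ways. In cells with 0, 1 or 2, 3 or 4, 5 or 6, 7 or 8 and 9 or 10 members, *Maf* was at 0.0323, 0.516, 2.07, 3.02, 4.20 and 5.06 UMIs per 10,000. *Mpo* was at 5.31, 6.72, 1.07, 0.266, 0.0748 and 0.123 in the same cells, and *Prtn3* at 6.07, 11.7, 4.69, 2.16, 0.857 and 0.416. *Maf* was higher at each step, whereas both granule genes were highest in cells with 1 or 2 members. *Cdh5* went from 0.715 with no member to 0.323 with 9 or 10, and *Mki67* from 2.69 to 3.86. The median depth of these groups was 37772, 36550.5, 35705, 37198, 35906 and 29118 UMIs.

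The 39 member-rich cells of cluster 1 counted the members in other proportions than the 769 of cluster 5. This comparison was chosen after the values were seen. *C1qa* was at 16.1 against 6.67 UMIs per 10,000 and *Adgre1* at 2.48 against 0.876, both higher in cluster 1, and *C1qc* was at 10.3 against 8.07. *Cx3cr1* was at 0.196 against 5.09, *Mrc1* at 0.490 against 2.98, *Ly86* at 0.869 against 3.21 and *Csf1r* at 1.78 against 3.53. *C1qb* (12.8 against 14.8) and *Aif1* (1.78 against 2.15) were closer. *C1qa* thus gave 34.4% (32.8–36.0%) of the member UMIs in cluster 1 against 14.0% (13.8–14.2%), and *Cx3cr1* 0.420% (0.230–0.703%) against 10.7% (10.5–10.9%). By library, *C1qa* was at 17.9, 14.7 and 8.0 and *Cx3cr1* at 0.0909, 0.474 and 0 in these cells of cluster 1, of which the library with suffix 3 held 4. *C1qc* was lower in cluster 1 in the library with suffix 3, at 3.36 against 8.22, and higher in the other libraries. Without the library with suffix 1, the log2 ratio of cluster 1 over cluster 5 went from -0.27 to -0.91 for *Aif1*, from -2.61 to -3.64 for *Mrc1* and from -4.70 to -3.83 for *Cx3cr1*, and without that with suffix 2 it was -5.98 for *Cx3cr1*.

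**Figure D5:**
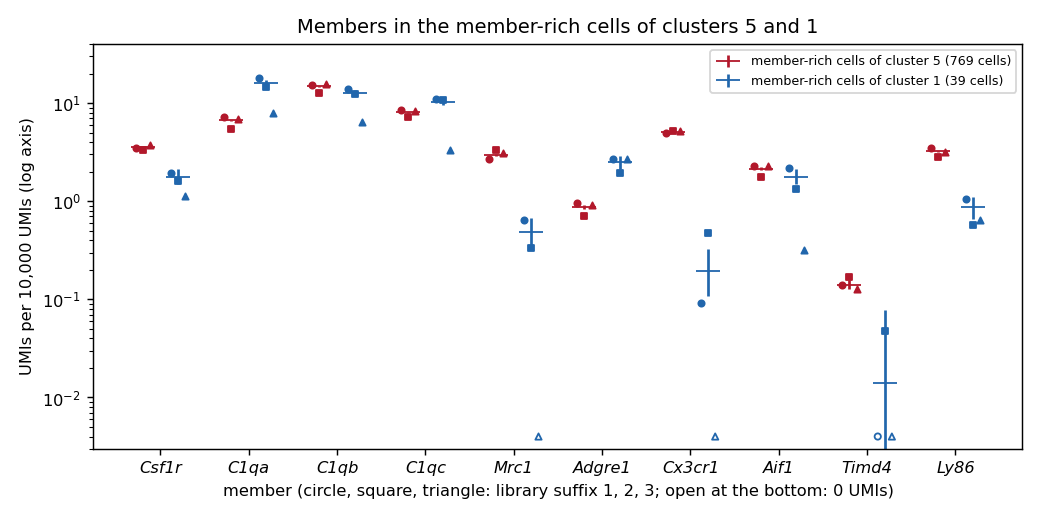
Level of the 10 genes, in UMIs per 10,000 UMIs on a log axis, in the member-rich cells of clusters 5 (769 cells) and 1 (39 cells), with the 95% counting interval of all libraries and symbols for each library. *Cx3cr1* lies lowest in cluster 1 relative to cluster 5 (0.196 against 5.09), and *C1qa* and *Adgre1* lie higher in cluster 1.

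With a minimum level of 1, 2072 genes were compared between these 2 sets of cells, and 12.7% were at least 4-fold higher and 7.96% at least 4-fold lower in cluster 1. Of the 9 members compared, *Mrc1* and *Cx3cr1* were lower and none was higher. Of 14 other macrophage genes 9 were at least 4-fold higher in cluster 1, among them *Apoe* (177 against 21.9), *Lyz2* (129 against 3.58), *Cd14* (32.3 against 0.177), the scavenger receptor *Marco* (10.5 against 0.0416) and *Gpnmb* (7.43 against 0.00699). The largest ratios were those of *Mmp12*, *Cxcl14*, *Slamf7*, *Saa3* (106 against 0.0538), *Inhba*, *Ccl5* (64.1 against 0.0444), *Il1rn*, *Gpnmb*, *Ptges* and *Il1a* (22.3 against 0.0269), several of which are inflammatory mediators. *Maf* was lower, at 1.39 against 3.52.

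The 6 proliferation genes were all at least 4-fold lower in the member-rich cells of cluster 1, with *Mki67* at 0.308 against 3.42. *Lyve1* had no UMI in them, where 3 UMIs would have been a level of 0.0420, against 0.441 in the member-rich cells of cluster 5. Of 6 genes used mainly before birth 4 were compared, and 1 was 4-fold lower, *Igf2bp1* (an RNA-binding protein), at 0.224 against 1.57. *H19* was at 0.841 against 1.12 and *Igf2* at 0.715 against 1.08. The 10 endothelial genes summed to 12.1 (5.60–18.5 over libraries, none at 0), against 66.5 in the other cells of cluster 1 and 4.84 in the member-rich cells of cluster 5. Of the 6 megakaryocyte genes 3 had no UMI, and their sum of 11.3 was that of *Pf4*. Of the 12 neutrophil genes 7 had no UMI, and *S100a8* was at 6.14 with *S100a9* at 0. Median depth was 16133 UMIs, against 7748 in the other cells of cluster 1. The part of joined cells in these values was not tested.

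Outside cluster 5, *Mrc1* departed from the other members in cluster 2. It gave 22.9% of the member UMIs of cluster 2, against 6.13% in cluster 5, and this was 35.3%, 14.4% and 34.4% in the libraries with suffixes 1, 2 and 3. Cluster 0 also lay above cluster 5, with 14.5% (9.58–20.6%) from 25 of 173 member UMIs. The 185 cells of cluster 2 with *Mrc1* had *Lyve1*, which encodes a hyaluronan receptor of lymphatic endothelium and of some macrophages, at 1.41 UMIs per 10,000 against 0.141 in the 5211 others, and in 41.6% against 10.7% of cells. Median depth was 23610 and 22444 UMIs. *C1qb* was at 0.0998 against 0.0270 in the same cells and *Csf1r* at 0.0173 against 0.00924. *Mrc1* in cluster 2 was thus accompanied by *Lyve1* at a level above those of *C1qb* and *Csf1r*, unlike in the member-rich cells of cluster 5.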

How the data were processed

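Single-cell RNA libraries (10x Genomics 3′ v3) of 3 pools were aligned by the authors to mm10 (GRCm38) and counted with Cell Ranger 3.1.0, and the libraries were joined with batch-effect removal. The gene annotation is not given in the sources used here. Seurat 3.1.5 is also listed in the submitters' processing notes. The deposited counts are whole UMIs of each cell for 27998 Ensembl genes. Also deposited is their natural log after scaling to 10,000 and adding 1, which was computed again to within 6.2e-15. The deposited map coordinates are scores without a unit that the authors made, with a cluster number per cell. The methods state that singlets with at least 5000 UMIs were kept, while 90 cells in the files have fewer.

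Ensembl identifiers were named from GENCODE M21 (27645 genes, with 353 left as identifiers) and 4 repeated names were summed. Levels are sums of UMIs per 10,000 with exact Poisson intervals, shares have exact (Clopper–Pearson) intervals and ratios have conditional binomial intervals, all at 95%. Shares and co-detection were computed after 5000 UMIs had been drawn from each cell (seed 1). For a group with 0 UMIs, 3 UMIs set the limit. No cell could be traced to a pool, so the matrix is 1 sample and no test was run. Scrublet called 8 of 9562 cells, too few for a caller that works, and no cell was removed.

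The members and lists were chosen with earlier results of these data known. A few genes of the lists are not reported here. From each list up to 4 genes with the highest level in cluster 5 are named, with the 5 largest ratios in each direction in member-rich cells and the 10 genes most correlated with the number of members. Other list genes, those compared between the 3 groups of cluster 5, and the comparison with cluster 1, with its 10 largest ratios in each direction, were chosen after their values were seen. Alternatives changed thresholds, depth, minimum level and scaling, left out each library in turn or left out called doublets. The procedures were tested on simulated data. The tools were scanpy 1.11.5, scipy 1.17.1, matplotlib 3.10.9, pandas 2.3.3 and numpy 2.4.6 under Python 3.11.15.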

Additional observations from a re-analysis of the deposited data

How the results depend on the processing

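Of 197 alternative values of 34 results, 120 stayed within their counting interval (gene counts within 1.5 times), 76 did not and 1 changed sign. The values without called doublets are counted here but could hardly move, since 6 cells of cluster 5 and 0 of clusters 1 and 2 were called. The log2 ratio of *C1qb* between member-rich cells of clusters 1 and 5 went from -0.21 to 0.03 with at least 4 members, which leaves fewer cells. The alternatives that leave out cluster 1, treat clusters 1 and 2 alone or compare member-rich cells of clusters 1 and 5 were added after the data were seen. No paired analysis was possible because no result comes from a test and no library suffix is tied to a labelled pool. Values within libraries stand beside the results. Counting intervals are narrow at this depth, so that small shifts leave them.

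The summed level in cluster 5 was 26.0 as a mean over cells and also 26.0 from the deposited normalized values, and 22.6–23.4 without 1 library. Outside cluster 5 it went from 0.314 to 0.440 as a mean over cells, to 0.129 without cluster 1 and to 0.233–0.423 without 1 library. With thresholds of 0 and 1 CPTT and at 5000 UMIs, the share of cluster 5 cells was 60.4%, 51.4% and 43.1% for *Csf1r*, 44.6%, 38.2% and 35.8% for *C1qa*, 35.3%, 27.7% and 25.7% for *Mrc1*, 40.4%, 18.4% and 18.3% for *Adgre1*, 58.3%, 50.4% and 45.2% for *Cx3cr1*, 47.8%, 35.4% and 29.0% for *Aif1*, 6.23%, 2.10% and 2.81% for *Timd4* and 55.3%, 47.8% and 40.4% for *Ly86*. For *C1qb* it was 52.2% at 0 CPTT, and for *C1qc* 41.9% at 5000 UMIs. Without 1 library the shares were 25.1–31.5% for *Adgre1*, 41.5–45.8% for *Aif1* and 49.9–55.8% for *Ly86*.

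With at least 2 members, at least 4 members and at 10,000 UMIs, the share of member-rich cells in cluster 5 was 53.6%, 43.9% and 53.0%. In cluster 1 it was 7.11%, 3.62% and 12.7%. Shallower cells drop out at 10,000 UMIs, which left 34 member-rich cells of 268 in cluster 1, against 39 of 745 in the main setting. The higher share of cluster 1 thus came from fewer cells in all and not from more member-rich cells. In cluster 5, 703 of 1327 cells were member-rich at 10,000 UMIs, against 769 of 1568. With at least 2 and at least 4 members the share of member-rich cells was 1.28% and 0.298% in cluster 2 and 1.77% and 0.557% outside cluster 5. Without 1 library it was 0–0.959% in cluster 2, where the library with suffix 2 held every such cell, and 0.610–1.22% outside cluster 5, lowest without that same library. With at least 2 UMIs the co-detection ratio was 2.35 for *C1qa* with *C1qb*, 2.64 for *C1qa* with *C1qc* and 2.28 for *C1qb* with *C1qc*.

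The minimum level sets how many genes are compared. At 1 and at 0.01, genes at least 2-fold higher in member-rich cells went from 658 to 152 and 1049, genes 2-fold lower from 407 to 50 and 1068, and genes 4-fold higher in cluster 5 from 387 to 72 and 709. At 0.1, genes 4-fold higher in member-rich cells of cluster 1 than of cluster 5 went from 264 to 804, and genes 4-fold lower from 165 to 644.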

Other observations

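*Timd4* divided the member-rich cells of cluster 5, in a comparison chosen after its values were seen. The 96 cells with a *Timd4* UMI had a median of 37552 UMIs and the 673 without one 34655. *Folr2*, a folate receptor of resident macrophages, was at 0.334 UMIs per 10,000 in the cells with *Timd4* and 0.0269 in those without, *Lyve1* at 1.29 and 0.301, and *Cd5l*, which encodes a secreted scavenger protein, at 0.129 and 0.00244. All 3 were higher with *Timd4* in each library. Of the other members, *C1qa* was at 12.2 against 5.75, *Mrc1* at 4.88 against 2.67 and *Adgre1* at 1.41 against 0.788. *Cx3cr1*, at 4.89 against 5.12, and *Ly86*, at 2.70 against 3.30, were not higher. *Ccr2* was at 0.0396 against 0.143, lower with *Timd4* in every library, and *Mki67* was at 3.50 against 3.41.

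On the deposited map, 276 of the 769 member-rich cells of cluster 5 formed a lobe joined to the others by a neck, with 124, 85 and 67 cells in the libraries with suffixes 1, 2 and 3. The bound, a first coordinate below -1.5, was set after the map was seen, and bounds of -1 and -2 would give 353 and 248 cells. The map was made from the same counts, so the values are a description. Cells of the lobe had a median of 8 members against 5 and a median depth of 29814 against 38796 UMIs. All 10 members were higher in the lobe in every library, with *Aif1* at 3.77 against 1.40 UMIs per 10,000, *Mrc1* at 5.61 against 1.77 and *Timd4* at 0.341 against 0.0490. *Slc40a1*, the iron exporter ferroportin, was at 1.84 against 0.203 and *Hmox1* (haem oxygenase) at 9.02 against 1.32. The 10 endothelial genes summed to 1.53 against 6.37, with *Cdh5* at 0.136 against 0.644 and *Cldn5* at 0.0631 against 0.805, and these 3 values were lower in the lobe in every library. Neutrophil and granulocyte progenitor genes summed to 0.453 against 3.41, lower in the lobe in every library, and erythroid genes to 0.480 against 3.57, lower in 1 of 3. *H19*, an imprinted gene, was at 0.210 against 1.54. The 6 proliferation genes summed to 18.2 against 17.0. The part of free RNA or of joined cells in these differences was not tested.

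The methods name female heart donors. Of the member-rich cells of cluster 5, 57.6% had a UMI of a Y-linked gene (*Ddx3y*, *Eif2s3y*, *Kdm5d* or *Uty*), with 49.2% to 66.0% over libraries, 49.4% had *Xist* and 13.7% had both. In cluster 2 the shares were 53.1%, 45.8% and 9.45%. Of 6 genes used mainly before birth, 3 were at least 2-fold lower in member-rich than in other cells of cluster 5 and none was higher, with a median log2 ratio of -0.72 against -0.10 for all genes compared. *Hmga2* was at 0.525 against 3.27 UMIs per 10,000, *H19* at 1.12 against 2.28 and *Igf2* at 1.08 against 2.89. *Igf2bp1*, at 1.57 against 1.61, *Lin28b*, at 0.253 against 0.339, and *Igf2bp3*, at 1.30 against 0.996, differed by less than 2-fold.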
